A study of Mus musculus with 2 samples.

Results

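The genes described here are those of transforming growth factor β (TGF-β) signalling, from the ligand through receptors and Smads to target genes. The samples are mouse cultures taken during the in vitro differentiation of mucosal mast cells. A list of 10 genes was set by name: Tgfb1, Tgfbr1, Tgfbr2, Smad2, Smad3, Smad7, Skil, Tgfbi, Bhlhe40 and Id2. Probes were assigned to them by the accession or the gene symbol in the array files, which gave 9 of the 10 genes 1 probe each, of 20418 gene names with a value on both arrays. Tgfbr2 had no probe by that rule. A probe that the files describe only in words as the type II TGF-β receptor is reported beside the 9 and is not counted among them.

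RNA of cultures at day 4 and day 20 was compared on 2 two-colour Agilent arrays. The medium of all cultures held TGF-β1 beside SCF (stem cell factor) and the interleukins IL-3 and IL-9, so cells of both days were exposed to the ligand and no culture without it was measured. Each labelled RNA was a pool of 3 samples, and the pools of the arrays had different origins. Day 4 carried Cy3 and day 20 Cy5 on array 1, and the dyes were swapped on array 2, and the comparison therefore rests on 2 independent ratios of day 20 to day 4 (n = 2). The labels give neither the strain nor the age or sex of the mice, nor the cells put into culture.

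TGF-β binds a type II receptor kinase, which then activates the type I receptor. The type I receptor phosphorylates Smad2 and Smad3, and these enter the nucleus with Smad4 and change transcription, while Smad7 and the SnoN protein encoded by Skil hold the pathway back. In mast cells TGF-β1 is known to switch on genes of the mucosal type, among them the chymase gene Mcpt1 and the integrin gene Itgae.

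The cultures carried mast cell markers at both days. Of 10 tested mast cell markers 9 were higher at day 20 and 1, the histidine decarboxylase gene Hdc, was lower, and the sum of their normalized signals went from 70600 and 81600 at day 4 to 317000 and 309000 at day 20 on arrays 1 and 2. At day 20, 3 of these markers were saturated on at least 1 array. Of 14 tested monocyte and macrophage markers 10 were lower and 1 was higher, and of 9 neutrophil markers 7 were lower. Of 4 basophil and eosinophil markers 3 were lower. These calls follow the test given below for the members, by which 7.85% of all genes were higher and 9.31% lower. These are bulk RNA samples, in which fewer cells of a type and less RNA per cell cannot be told apart. Well above background, as called by the scanner software, were 96.2% of gene spots for day 4 and 93.1% for day 20 on array 1, and 80.0% for day 4 and 90.5% for day 20 on array 2.

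Promoter windows from RefSeq (GRCm38.p6, 250 bases before to 50 after each start) are shown for Tgfbi and Id2, which changed, and for both receptor genes. Windows of 6 of the 10 genes were used. None was matched by symbol for Bhlhe40 and Skil, and Smad2 and Smad7 were left out of the search by rule. Capitals mark CAGAC on either strand (GTCTG on the other), the short DNA element known to bind Smad3 and Smad4.
Tgfbi, chr13:56609336-56609635, strand +: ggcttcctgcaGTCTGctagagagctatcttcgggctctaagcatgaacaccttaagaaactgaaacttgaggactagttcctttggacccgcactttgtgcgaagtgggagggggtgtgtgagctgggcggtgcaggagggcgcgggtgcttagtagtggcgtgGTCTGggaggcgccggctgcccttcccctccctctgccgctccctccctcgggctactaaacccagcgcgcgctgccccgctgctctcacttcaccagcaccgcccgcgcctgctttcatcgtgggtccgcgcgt
Id2, chr12:25096043-25096342, strand -: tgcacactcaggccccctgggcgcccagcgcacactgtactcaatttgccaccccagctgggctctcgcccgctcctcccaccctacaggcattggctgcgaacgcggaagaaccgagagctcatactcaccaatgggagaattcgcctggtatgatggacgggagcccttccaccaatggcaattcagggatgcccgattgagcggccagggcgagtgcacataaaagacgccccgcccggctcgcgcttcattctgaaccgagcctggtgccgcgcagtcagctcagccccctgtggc
Tgfbr2, chr9:116175314-116175613, strand -: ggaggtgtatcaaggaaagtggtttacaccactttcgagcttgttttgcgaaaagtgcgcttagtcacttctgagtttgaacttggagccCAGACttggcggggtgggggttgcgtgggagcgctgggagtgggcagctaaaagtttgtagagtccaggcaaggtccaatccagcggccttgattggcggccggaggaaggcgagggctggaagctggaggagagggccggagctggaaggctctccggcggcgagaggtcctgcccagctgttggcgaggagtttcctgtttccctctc
Tgfbr1, chr4:47352972-47353271, strand +: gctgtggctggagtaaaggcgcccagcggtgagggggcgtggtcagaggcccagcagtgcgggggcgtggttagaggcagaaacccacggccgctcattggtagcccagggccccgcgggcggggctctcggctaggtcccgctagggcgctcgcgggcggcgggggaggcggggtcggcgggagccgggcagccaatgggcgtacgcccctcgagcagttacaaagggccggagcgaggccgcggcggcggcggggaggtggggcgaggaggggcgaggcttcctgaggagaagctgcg
The Tgfbi window held 2 copies of CAGAC and the Tgfbr2 window 1, while the Id2 window and the Tgfbr1 window printed held 0. A further RefSeq window of Tgfbr1 held 1 copy, and those of Tgfb1 and Smad3 held 0. Of 32851 windows of the same length, 49.6% held CAGAC, so its presence or absence in these windows is common. The palindrome GTCTAGAC was in 0.213% of all windows and the E-box CACGTG, the element that the Bhlhe40 protein binds, in 7.15%, and neither was in any member window searched on both strands.

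Of the 9 measured members, Bhlhe40 and Id2 were higher at day 20, Tgfbi was lower, and the ligand, the type I receptor, Smad2, Smad3, Smad7 and Skil did not pass the test. The test was limma's moderated test of the log2 ratio against 0, two-sided, with Benjamini-Hochberg adjustment over all 18060 genes tested and a threshold of 0.05. By the same rule 17.2% of all genes were called, 7.85% as higher and 9.31% as lower. The members' median log2 ratio was 0.09 and that of all genes was -0.01. A count of 3 among 9 genes is small, and nothing is read from its share. Errors below are the SD over the 2 arrays, and intervals are limma's 95% intervals.

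**Figure D1:**
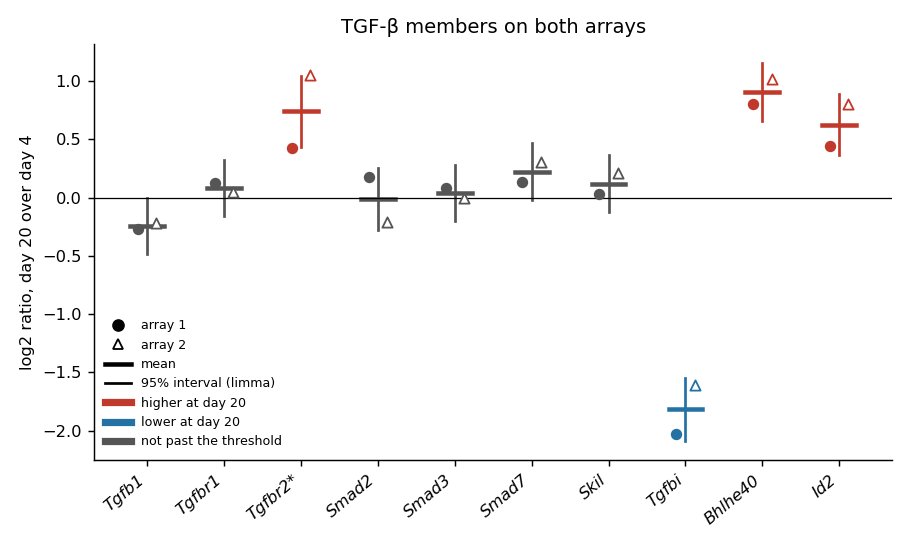
Log2 ratio of day 20 over day 4 for each member on array 1 (filled circles) and array 2 (open triangles), with the mean of both arrays and the limma 95% interval. The asterisk marks the Tgfbr2 probe that is described only in words. Tgfbi lies at -2.03 and -1.61, far below the other members, and Bhlhe40 and Id2 lie above 0 on both arrays.

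Tgfb1 encodes the ligand TGF-β1 itself. Its normalized signal, in scanner units, was 270 at day 4 and 225 at day 20 on array 1, and 388 at day 4 and 333 at day 20 on array 2. Day 20 was thus the lower of the pair on each array. The log2 ratio was -0.24 ± 0.03 (SD, n = 2), with a limma adjusted p of 0.196 and an interval from -0.48 to -0.0026. The genes of the other TGF-β isoforms were also without a call: Tgfb2 had a log2 ratio of 0.03 and Tgfb3 of -0.02, and Tgfb2 exceeded 95% of the negative controls in 2 of 4 channels.

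Tgfbr1 encodes the type I receptor, also known as ALK5. Its normalized signal was 71.2 at day 4 and 77.5 at day 20 on array 1, and 64.7 and 67.0 on array 2. Only 1 of these 4 channels exceeded the 95th percentile of the 162 negative control spots of that channel, and day 4 on array 2 was not well above background. The log2 ratio of 0.09 ± 0.05, with an interval from -0.15 to 0.33 and a limma adjusted p of 0.866, therefore describes a spot near the detection limit. With the scanner software's ratio it was 0.47, also without a call.

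The probe described in words as the type II receptor was bright and higher at day 20. Its normalized signal was 400 at day 4 and 538 at day 20 on array 1, and 418 at day 4 and 868 at day 20 on array 2. All day 20 values lay above all day 4 values. The log2 ratio was 0.74 ± 0.44, or 1.67-fold, with a limma adjusted p of 0.00186. The arrays differed in size, with log2 ratios of 0.43 and 1.05. The call ended with the scanner software's ratio (0.83, adjusted p of 0.0900 with limma) and with median centring in place of loess (0.73, adjusted p of 0.120).

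Smad2 and Smad3 encode the Smads that the TGF-β receptors phosphorylate. Smad2 had normalized signals of 131 at day 4 and 149 at day 20 on array 1, and of 175 and 151 on array 2. Its arrays pointed in opposite directions, with log2 ratios of 0.18 and -0.21, and the mean was -0.01 ± 0.28 (interval -0.28 to 0.25). Smad3 had normalized signals of 69.4 and 73.6 on array 1 and of 62.7 and 62.5 on array 2, in the order day 4 and day 20. It exceeded 95% of the negative controls in 1 of 4 channels, so its log2 ratio of 0.04 ± 0.06 says little about the transcript. A probe described in words as Smad3 exceeded them in 3 of 4 channels and had a log2 ratio of -0.10 ± 0.19 (interval -0.35 to 0.15).

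Smad7 encodes the inhibitory Smad that TGF-β itself induces in many cells, and Skil another such feedback gene. Smad7 had normalized signals of 271 at day 4 and 299 at day 20 on array 1, and of 146 and 181 on array 2. Day 20 was the higher of each pair, but the step between the arrays was larger than the step between the days. Its log2 ratio was 0.22 ± 0.12 (interval -0.02 to 0.47, limma adjusted p of 0.266). Skil stood at 118 and 121 on array 1 and at 134 and 155 on array 2. Its log2 ratio was 0.12 ± 0.13 (interval -0.13 to 0.36), again without a call. The upper ends of these intervals leave room for rises of Smad7 and Skil that 2 arrays could not detect.

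**Figure D2:**
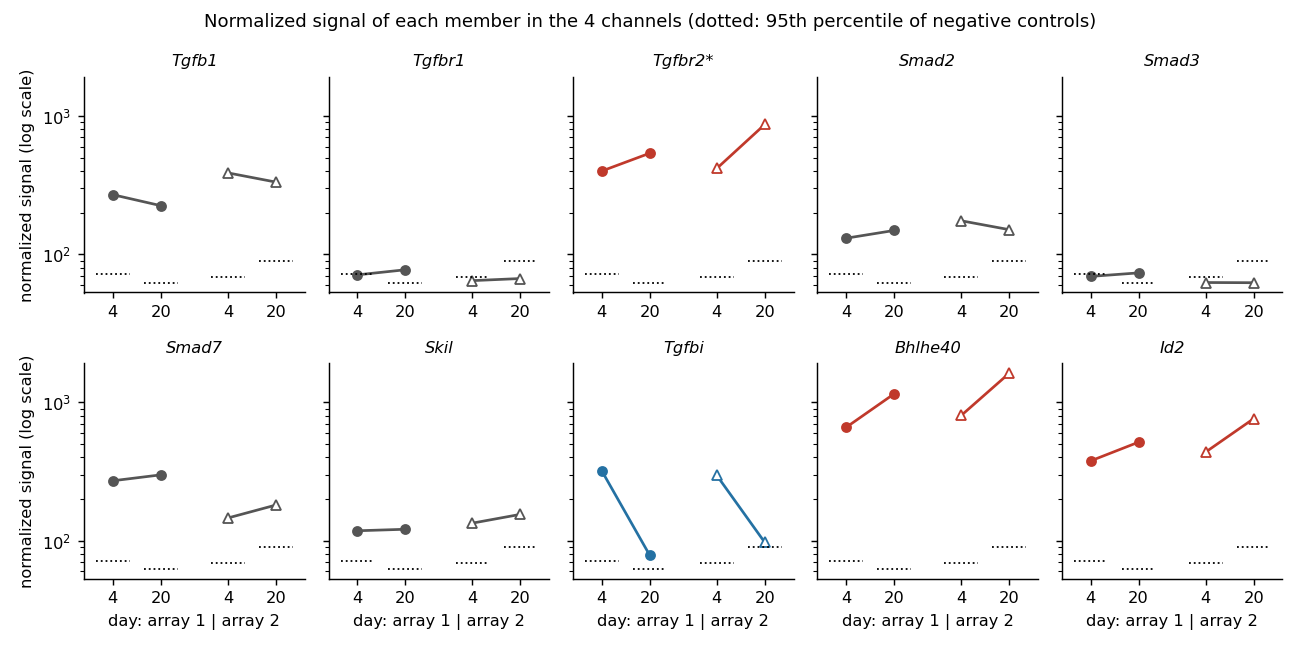
Normalized signal in scanner units (log axis) of each member at day 4 and day 20, array 1 on the left of each panel and array 2 on the right. Dotted lines give the 95th percentile of the negative control spots in that channel, and the asterisk marks the probe described only in words. Tgfbr1 and Smad3 lie at the dotted lines, and Tgfbi falls to just above them at day 20.

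Tgfbi, Bhlhe40 and Id2 are targets. Tgfbi encodes a secreted matrix protein that TGF-β induces in many cells and that monocytes and macrophages also make. Its normalized signal was 320 at day 4 and 78.6 at day 20 on array 1, and 296 and 97.2 on array 2. Day 20 was far below day 4 on both arrays and close to the 95th percentile of the negative controls, which was 62.6 and 90.1 in those channels. Before normalization the day 20 signal on array 1 was 43.2, above the 16.5 of that channel's controls. On array 2 it was 89.3, below the 92.6 of that channel's controls, so the day 20 level there is near the detection limit. The log2 ratio was -1.82 ± 0.30, or 3.52-fold lower, with a limma adjusted p of 3.69e-07. Only 26 of the 18060 genes had a lower ratio. The size depended on how background was handled: the log2 ratio was -2.79 with a normexp offset of 0 and -2.94 with the scanner software's ratio.

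Of the 14 monocyte and macrophage markers 10 fell, as Tgfbi did, against 9.31% of all genes. Their summed normalized signal was 16400 and 16600 at day 4 and 3890 and 3860 at day 20, on arrays 1 and 2. A few bright probes carry that sum: Spp1 alone had 8830 and Ctss 3220 at day 4 on array 1. Of the 14 markers 3 did not pass, C1qb at a log2 ratio of 0.02, C1qc at -0.07 and Itgam at -0.13. The markers furthest from 0 were Ctss (cathepsin S) at a log2 ratio of -3.60, Lyz2 (lysozyme) at -2.88 and Spp1 (osteopontin) at -2.66. Marco, a scavenger receptor gene, was the 1 marker that rose, at 0.42. All 14 were called well above background by the scanner software in every channel at both days. Itgam exceeded 95% of the negative controls in only 2 of 4 channels, so its ratio describes a spot near the detection limit. Falls were not particular to this list. Of 9 neutrophil markers 7 were lower and 0 higher, with S100a9 at a log2 ratio of -5.06. Of 4 basophil and eosinophil markers 3 were lower and 0 higher, with Mcpt8 at -2.78. The part of any of these cell types in the fall of Tgfbi was not tested.

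Bhlhe40 encodes a basic helix-loop-helix repressor of transcription. Its normalized signal was 659 at day 4 and 1150 at day 20 on array 1, and 803 and 1620 on array 2. The days did not overlap. The log2 ratio was 0.91 ± 0.15, or 1.88-fold higher, with a limma adjusted p of 6.90e-05, and 331 genes had a higher ratio. The call held in all 7 other settings of background, normalization, filter and variance model, with log2 ratios from 0.85 to 0.99.

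Id2 encodes a helix-loop-helix protein without a DNA-binding region, which captures E proteins and so keeps them off DNA. Its normalized signal was 377 at day 4 and 515 at day 20 on array 1, and 437 and 761 on array 2. Every day 20 value lay above every day 4 value. The log2 ratio was 0.62 ± 0.25, or 1.54-fold higher, with a limma adjusted p of 0.00217. It lost the call with the scanner software's ratio (0.71, limma adjusted p of 0.0988) and with median centring (0.61, limma adjusted p of 0.0876). In each of those settings 1 member was higher and 1 was lower. The scanner software's ratio called 6.88% of all genes (3.39% higher, 3.48% lower) and median centring 7.44% (3.1% higher, 4.34% lower).

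Other Id genes were measured by probes described in words, and Id1 ran opposite to Id2. The Id1 probe had a normalized signal of 551 at day 4 and 164 at day 20 on array 1, and of 425 and 195 on array 2. Day 20 was the lower on both arrays, at a log2 ratio of -1.44 ± 0.44 or 2.70-fold, with a limma adjusted p of 8.13e-06, and the call held in all 7 other settings. The Id3 probe was at 0.14 ± 0.02 and did not pass (interval -0.10 to 0.38). Id1 and Id3 are best known as targets of bone morphogenetic protein (BMP) signalling, which runs through Smad1 and Smad5. Any part of BMP signalling in the changes of Id1 and Id2 was not tested.

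**Figure D3:**
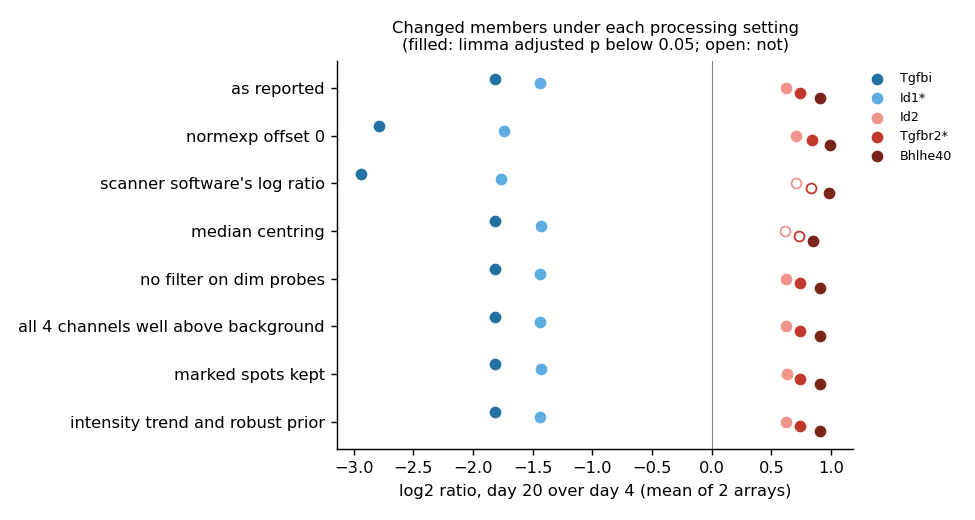
Log2 ratio of day 20 over day 4 (mean of 2 arrays) of the members that changed and of the word-described Id1 and Tgfbr2 probes (asterisks) under each processing setting. Filled points passed limma's adjusted threshold of 0.05. Tgfbi moves from -1.82 to -2.94 with the background method, while Id2 and the Tgfbr2 probe lose the call with the scanner software's ratio and with median centring.

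The wider family was described with 101 further genes, of which 72 had a probe and 65 were tested. Of these 13 were higher and 6 lower at day 20, against 7.85% and 9.31% of all genes, and their median log2 ratio was 0.04 against -0.01. With the scanner software's ratio the split was 8 higher and 1 lower, against 3.39% and 3.48% of all genes in that setting. Genes were written into this list from general knowledge, and some, such as Itgae, Junb, Myc, Mcpt1 and Mcpt2, were already known to change in these data.

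Among 18 tested genes for ligands and their release from latency, Furin and Bmp7 rose and 0 fell, against 7.85% and 9.31% of all genes. Several uncalled genes of this group exceeded 95% of the negative controls in 2 or fewer of 4 channels. The ratios of those genes describe spots near the detection limit. Furin, the protease that cuts pro-TGF-β into its active part and its latency peptide, had normalized signals of 5070 at day 4 and 8840 at day 20 on array 1, and of 4890 and 9140 on array 2. Its log2 ratio was 0.85 ± 0.07 (limma adjusted p of 9.38e-05), and with median centring it was 0.62 with an adjusted p of 0.0569. Bmp7, a BMP ligand gene, rose from 82.2 to 160 on array 1 and from 134 to 233 on array 2. This was a log2 ratio of 0.88 ± 0.12, and of 1.45 with the scanner software's ratio. A probe described in words as a homolog of Ltbp4, which encodes a binding protein of latent TGF-β, was higher at 0.60 ± 0.03. That call ended with the scanner software's ratio (0.66). The word-described probe of Thbs1, listed in the same group, was at -0.10 without a call.

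Of 8 tested receptor genes 1 rose and 1 fell, against 7.85% and 9.31% of all genes. Both called genes belong to the same receptor complex of endothelial cells. Acvrl1, which encodes the type I receptor ALK1, had normalized signals of 594 at day 4 and 971 at day 20 on array 1, and of 521 and 709 on array 2. The log2 ratio of Acvrl1 was 0.58 ± 0.19 (limma adjusted p of 0.00297), and with the scanner software's ratio it had no call. Eng, which encodes the coreceptor endoglin, went the other way, from 131 to 89.5 on array 1 and from 142 to 97.5 on array 2. Its log2 ratio was -0.54 ± 0.0046 (limma adjusted p of 0.00318), and -1.01 with a normexp offset of 0. Before normalization the day 20 signal of Eng on array 2 was 92.7, against 92.6 for the 95th percentile of that channel's negative controls. The other 6 receptor genes (Acvr1, Acvr1b, Acvr2b, Bmpr1b, Bmpr2 and Amhr2) had log2 ratios between -0.0007 and 0.10. Of these 6, only Acvr1b exceeded 95% of the negative controls in all 4 channels. The word-described probe of Tgfbr3, also on the receptor list, exceeded them in all 4 channels and was at -0.0076 without a call.

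Of the 5 Smads outside the member list, Smad4 and Smad1 were higher, against 7.85% of all genes. Smad4, the partner shared by the TGF-β and BMP branches, had normalized signals of 237 at day 4 and 300 at day 20 on array 1, and of 188 and 284 on array 2. The log2 ratio of Smad4 was 0.47 ± 0.18 (limma adjusted p of 0.0117). Smad1, a Smad of the BMP branch, was at 0.46 ± 0.15 (limma adjusted p of 0.0125). Both were higher on each array, and both lost the call with the scanner software's ratio and with median centring. Smad1 also lost it with a normexp offset of 0 (0.53, limma adjusted p of 0.0965). Smad5 at 0.21, Smad6 at 0.03 and Smad9 at 0.04 did not pass, and Smad5 passed with a normexp offset of 0, at 0.73 (limma adjusted p of 0.0168). Smad5 and Smad6 each exceeded 95% of the negative controls in 2 of 4 channels. For Smad5, day 4 on array 2 was not well above background, so its ratio describes a spot near the detection limit.

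Of 15 tested regulators of the Smads 3 were lower and 1 was higher, against 9.31% and 7.85% of all genes. Fkbp1a, which encodes a protein that binds the type I receptor and keeps it silent, was lower at -0.78 ± 0.30, with normalized signals from 1830 to 1240 on array 1 and from 1990 to 999 on array 2. Strap, which encodes a receptor-binding inhibitor, was lower at -0.52 ± 0.36, and its arrays differed, with log2 ratios of -0.77 and -0.27. Tgif1, a Smad corepressor gene, was at -0.35 ± 0.01 with an adjusted p of 0.0450 by limma, just inside the threshold, and at -0.71 with a normexp offset of 0. Its normalized day 20 signal on array 2 was 87.7, below the 90.1 of the negative controls' 95th percentile in that channel. Sp1, whose protein binds DNA beside Smads, was higher at 0.46 ± 0.07. None of these 4 calls held with the scanner software's ratio, those of Strap, Tgif1 and Sp1 also ended with median centring, and those of Strap and Sp1 with a normexp offset of 0.

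Of 19 tested target genes 7 were higher and 2 lower, against 7.85% and 9.31% of all genes. Of these 9 calls, 5 (Itgae, Junb, Myc, Mcpt1 and Mcpt2) were of genes listed with their change already known, so the count was partly fixed by how the list was written. Junb, which encodes a subunit of the AP-1 factor, had a log2 ratio of 2.15 ± 0.01. The mucosal chymase genes Mcpt2 and Mcpt1 were at 2.09 ± 0.48 and at 1.58 ± 0.11. Mcpt1 was saturated at day 20 on 1 array, so its ratio is a lower bound and its order against the others is not known. Mcpt1 and Mcpt2 are close in sequence, so their probes may share signal. Itgae, the integrin chain of CD103, was at 1.25 ± 0.36. Tsc22d1, first found as a TGF-β-induced transcript, had normalized signals of 282 at day 4 and 515 at day 20 on array 1, and of 227 and 414 on array 2. Its log2 ratio was 0.87 on each array. Gadd45b at 0.53 ± 0.12 and Cdkn1b, the gene of the cell cycle inhibitor p27, at 0.40 ± 0.01 were also higher. Cdkn1b was dim, with normalized signals of 74.9 at day 4 and 99.2 at day 20 on array 1, and of 90.4 and 119 on array 2. The 95th percentile of the negative controls was 71.8 at day 4 on array 1, so that level is near the detection limit.

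Myc, a growth-promoting factor gene that TGF-β represses in many cells, fell. Its normalized signal was 1310 at day 4 and 719 at day 20 on array 1, and 1210 and 906 on array 2. Every day 20 value lay below every day 4 value, at a log2 ratio of -0.64 ± 0.32 (limma adjusted p of 0.00253). Other common TGF-β targets, picked here after their values were seen, did not pass: Ccn2 was at -0.0069 and Klf10 at 0.31, and the word-described probe of Cdkn1a was at -0.03. Calls of Gadd45b and Myc ended with the scanner software's ratio and with median centring, and that of Cdkn1b with median centring. With a normexp offset of 0 Cdkn1b was at 0.88.

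**Figure D4:**
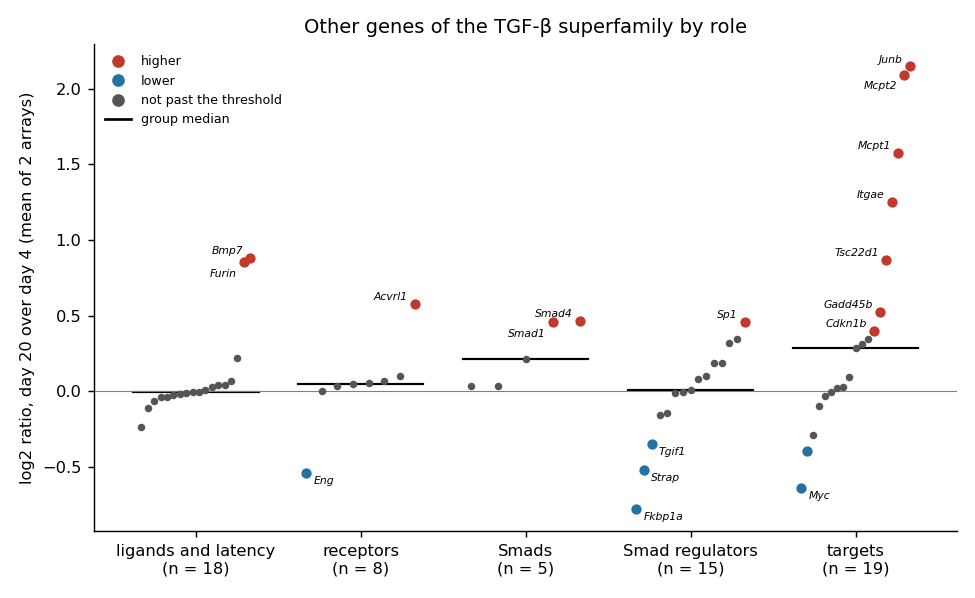
Mean log2 ratio of day 20 over day 4 of 65 further genes of the TGF-β superfamily, grouped by role and ordered within each group, with group medians as black lines. Red points were higher and blue points lower by limma's adjusted threshold of 0.05, and the called genes are named except 1 target. Most ligand and receptor genes lie near 0, but several of these exceeded 95% of the negative controls in 2 or fewer of 4 channels. Of the 19 targets 9 were called, against 17.2% of all genes, and 5 of the 9 were listed with their change already known.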

How the data were processed

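Pooled RNA of mouse cultures differentiating into mucosal mast cells was hybridised to 2 two-colour Agilent arrays with swapped dyes. The authors read the scans with Feature Extraction (7.5.1 in the header of array 2, given as 7.5 per the labels). The deposited files hold raw mean and local background intensity values per dye, processed intensity values, and a log10 ratio of Cy5 over Cy3, which the deposited value table equals in all 22393 rows per array (tolerance 1e-06). Other values, 313 Cy3 and 324 Cy5 background medians of array 1 in the authors' deposited file, had become month names. They were read back with an assumed fraction. The largest distance of such a value from its local background mean was 1.57 for Cy3 and 403 for Cy5, so at least 1 Cy5 value may be wrong.

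Log2 ratios were computed with R 4.3.3 and limma 3.58.1: normexp with an offset of 50, loess within each array, control and outlier-marked spots without weight, marked spots left out. Per-channel signals are those after loess and scaling of mean intensities between arrays (Aquantile), and include the offset. Of 20868 gene probes 20571 had a value on both arrays. The brightest probe of each of 20418 names was kept, and 18060 were tested, those well above background in both day 4 or both day 20 channels. Names came from RefSeq accessions (8945 probes), symbols in the description (368) or older symbols there (363), with RefSeq's GRCm38.p6 annotation, and 11192 probes kept an accession. Probes described in words were matched by hand after the files were read. lmFit and eBayes tested the ratio against 0. Each gene had 1 residual degree of freedom against 12.2 of the prior, which carries most of the variance. No dye term was fitted. Both days share each array, so ratios are paired by design. The p-values rest on 2 arrays. The script was tested on simulated data.

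Members, lists and tests were chosen with earlier results of these data known. The text names all members, the other listed genes past the threshold, and the Smads, receptors and ligands related to members. Of the lists of mast cell, monocyte and macrophage, neutrophil, and basophil and eosinophil markers, counts are given. A listed target is counted but its result is not reported here. The protein sequences of the members are not used here.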

Additional observations from a re-analysis of the deposited data

How the results depend on the processing

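Over 7 other settings (normexp offset 0, the scanner software's log ratio, median centring, 2 other filters on dim probes, marked spots kept, and an intensity trend with a robust prior), Tgfbi stayed lower and Bhlhe40 higher with a call. The limma adjusted p was at most 0.0110 for Tgfbi and 0.0345 for Bhlhe40.  Each measured member had 1 probe by accession or symbol. For Smad3 the probe described in words gave -0.10 in place of 0.04, also without a call. With all 4 channels required to be well above background, Tgfbr1 and Smad3 were not tested. The scanner software's ratio called 1242 genes (613 higher, 629 lower) and median centring 1343 (559 higher, 784 lower) in place of 3099 (1418 higher, 1681 lower), and each called 9 of the 65 further family genes in place of 19. The cause was not tested. Of 50 single-gene ratios recomputed, 13 lost the call with the scanner software's ratio, 12 with median centring and 3 with offset 0, where 1 gained it. No called ratio turned its sign in any setting or on either array alone, where no test is possible. The deposited value table was not run as a setting of its own because it equals the scanner software's ratio. The arrays' signal over background limits, among others, Tgfbr1, Smad3, Smad5, Smad6 and the day 20 levels of Tgfbi, Tgif1 and Eng on array 2.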
